A study of Mus musculus with 12 samples.

Results

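The genes described here encode the machinery of mitosis: the cyclins and kinases that start it, the spindle and kinetochore parts that move the chromosomes, the checkpoint that times their separation, and the proteins that divide the cell afterwards. They are 42 genes taken by symbol and matched to their Ensembl identifiers, among 37620 identifiers in the count table. Each of the 42 had 1 identifier, and all 42 had enough reads to be among the 14616 genes tested.

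Most of these genes are silent in resting cells and are transcribed together late in the cell cycle, so the summed level of their RNA in a culture is widely used as a readout of how many cells are dividing. Their promoters are known for a short element called the cell cycle genes homology region (CHR), which is bound in resting cells by the repressor complex DREAM and in dividing cells by complexes holding B-MYB and FOXM1, and for CCAAT boxes bound by the factor NF-Y. Macrophages grown from bone marrow divide in culture under macrophage colony-stimulating factor and leave the cycle as they mature.

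The RNA came from primary bone marrow-derived macrophages of C57BL/6 mice, taken at day 7 of culture, with no other genetic change given in the labels. All cells received either 25 mM sodium lactate or, as the salt control, 25 mM NaCl, and were kept in normoxia or in hypoxia at 1% oxygen. The 4 combinations had 3 libraries each, and a name such as normoxia-NaCl 2 gives the oxygen, the salt and the library's number in the labels. The design text states the question as the response of macrophages to lactate, to low oxygen and to both. The labels are silent on how long each treatment lasted and on whether replicate libraries stem from different animals or dishes; the p-values reflect library-to-library spread alone, and that spread may be technical.

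Each library held 22705978 to 49885085 reads assigned to genes. Levels are given as CPM, the reads of a gene relative to the TMM-scaled size of its library, and group values are means ± SD over 3 libraries. Macrophage identity was plain in all libraries: the 12 identity genes summed to between 35549 and 51161 CPM. The 6 lymphocyte markers and 7 of the 8 erythroid markers stayed below 1 CPM in all libraries, with 1 marker of each list at 0 throughout. Of the 12 HIF target genes, 10 rose with hypoxia in NaCl, 11 in lactate and 12 for both treatments together. Library hypoxia-lactate 3 stood apart: only 11437 genes reached 10 counts in it, where the remaining 11 had 13198 to 14767, and its median Spearman correlation with them was 0.906 against 0.966 to 0.987. Mitochondrial genes held 0.486% of its assigned reads, against 2.04% to 4.75% in the others. The medians and numbers of called genes over the mitosis genes in comparisons with that library are therefore also given without it. Normoxia-NaCl 1, a library of the reference group, had the highest mitochondrial share (4.75%), the highest share of reads aligned in several places (18.4%) and the lowest correlation after hypoxia-lactate 3. Without normoxia-NaCl 1 the median log2 fold change of the mitosis genes was -0.83 for lactate in normoxia, -0.53 for hypoxia without lactate and -1.15 for both together.

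The promoters of 36 of the 42 genes were in the RefSeq table used here (assembly GRCm38.p6), in 38 windows running from 250 bases before to 50 bases after the annotated start. The sequences shown are those of the 2 genes that passed the test with all libraries (Cdk1 and Cdca3), of 2 genes that read highest in hypoxia-lactate 3 (Cdc20 and Kif23), and of Pttg1, whose level differed least between the groups. Capitals mark the 2 motifs searched on both strands: the CHR (TTTGAA, or TTCAAA on the other strand) and the CCAAT box (CCAAT, or ATTGG on the other strand). All are printed 5′ to 3′ in the direction of the gene. The Cdk1 window lies at chr10:69352863-69353162 on the minus strand, the Cdca3 window at chr6:124829926-124830225 on the plus strand, the Cdc20 window at chr4:118437294-118437593, the Kif23 window at chr9:61946750-61947049 and the Pttg1 window at chr11:43425932-43426231, the last 3 on the minus strand.
Cdk1: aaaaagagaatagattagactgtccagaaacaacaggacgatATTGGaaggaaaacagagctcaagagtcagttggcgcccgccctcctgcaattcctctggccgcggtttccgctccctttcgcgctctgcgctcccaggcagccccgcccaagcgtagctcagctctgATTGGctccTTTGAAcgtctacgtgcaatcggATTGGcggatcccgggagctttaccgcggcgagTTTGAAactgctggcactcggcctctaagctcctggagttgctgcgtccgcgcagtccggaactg
Cdca3: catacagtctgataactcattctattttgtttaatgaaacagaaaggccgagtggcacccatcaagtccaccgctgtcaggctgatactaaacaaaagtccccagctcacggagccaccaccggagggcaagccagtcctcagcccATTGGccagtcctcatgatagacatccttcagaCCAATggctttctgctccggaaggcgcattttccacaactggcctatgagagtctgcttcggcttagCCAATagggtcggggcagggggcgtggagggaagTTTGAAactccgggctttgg
Cdc20: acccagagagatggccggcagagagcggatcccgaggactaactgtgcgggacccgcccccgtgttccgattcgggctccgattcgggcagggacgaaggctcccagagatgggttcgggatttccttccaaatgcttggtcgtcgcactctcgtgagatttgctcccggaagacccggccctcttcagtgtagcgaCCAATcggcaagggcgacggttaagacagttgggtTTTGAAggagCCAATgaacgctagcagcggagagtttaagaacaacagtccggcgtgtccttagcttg
Kif23: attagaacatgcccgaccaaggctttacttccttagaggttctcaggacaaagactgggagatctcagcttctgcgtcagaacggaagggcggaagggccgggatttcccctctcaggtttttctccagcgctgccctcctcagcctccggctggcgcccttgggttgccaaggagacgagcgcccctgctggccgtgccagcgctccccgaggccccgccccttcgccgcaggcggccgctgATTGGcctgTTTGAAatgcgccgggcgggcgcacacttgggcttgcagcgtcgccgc
Pttg1: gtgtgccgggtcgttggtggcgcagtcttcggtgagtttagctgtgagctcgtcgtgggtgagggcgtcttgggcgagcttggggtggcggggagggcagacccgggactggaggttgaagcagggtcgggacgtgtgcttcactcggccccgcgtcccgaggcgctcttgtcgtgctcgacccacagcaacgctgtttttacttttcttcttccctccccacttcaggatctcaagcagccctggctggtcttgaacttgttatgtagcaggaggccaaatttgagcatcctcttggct

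Cdk1 held 2 CHR matches and 3 CCAAT boxes, Cdca3 held 1 and 3, Cdc20 1 and 2, and Kif23 1 and 1. Pttg1 held neither. Over all mitosis genes with a window, 29 of 38 windows (76.3%) held a CHR match, against 17.9% of all 32851 RefSeq windows of the same length. A CCAAT box was in 76.3% of the windows, against 37.4% of all windows, and both motifs were in 68.4%, against 6.95%. The first bases of the 37 CHR matches had a median position of 3 bases after the start, and 75.7% of them lay between 60 bases before and 50 bases after it, against 28.2% of the 6737 matches over all windows. The CCAAT boxes lay further upstream, with a median of 69.5 bases before the start. Ect2 and Prc1 had overlapping windows, so their sites were counted more than once in these shares and positions. By gene, 27 of 36 held a CHR match and 27 of 36 a CCAAT box. Among windows of other gene lists, a CHR match was in 45.8% for other mitosis genes and in 10.5% for DNA replication genes. The share was 26.7% for G1 cyclins and kinases and 18.5% for CDK inhibitors and quiescence regulators. For cohesin genes (6 windows) it was 16.7%, and for subunits of the anaphase-promoting complex 11.8%. A CCAAT box was in 64.4%, 60.5%, 53.3%, 55.6%, 66.7% and 41.2% of the windows of these lists, in the same order. Both motifs were in 0% (anaphase-promoting complex) to 30.5% (other mitosis genes). Such a match is a description of the letters only.

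**Figure D1:**
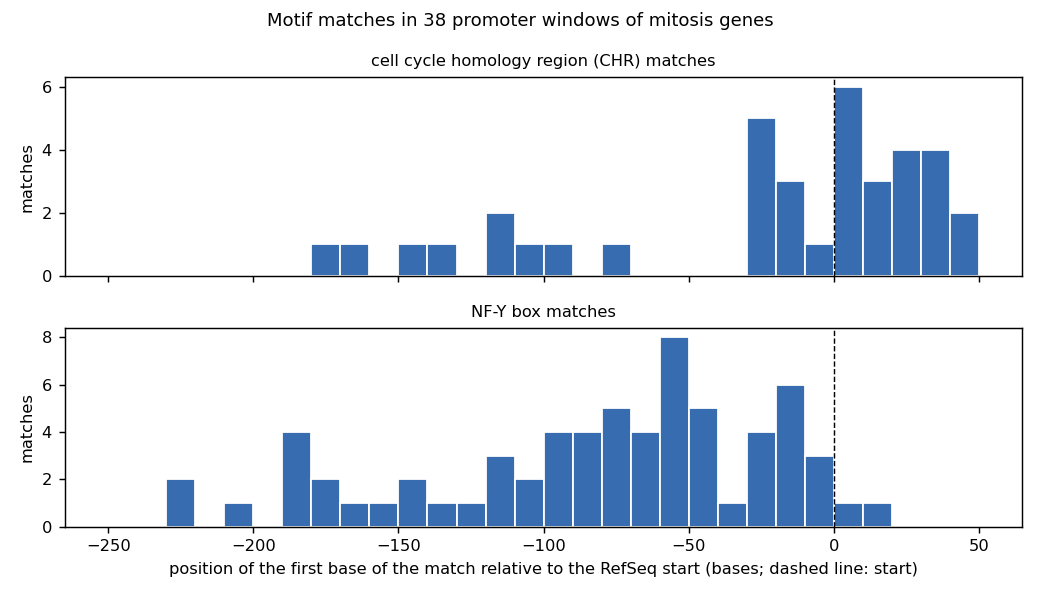
Positions of CHR matches (top) and CCAAT box matches (NF-Y box, bottom) in the 38 RefSeq promoter windows of 36 mitosis genes; the horizontal axis is the position of the first base of a match relative to the annotated start in bases, in bins of 10, and the vertical axis counts matches. CHR matches gather around the start (median 3 bases after it), and CCAAT boxes before it (median 69.5 bases before).

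Summed over the 42 genes, the level was highest in normoxia with NaCl and lower in each of the other groups. The sum was 1389.7, 1958 and 1133 CPM in normoxia-NaCl 1, 2 and 3, which is 1494 ± 423 CPM. In normoxia-lactate it was 876, 1073 and 758 CPM, or 902 ± 159 CPM. In hypoxia-NaCl it was 1209, 1359 and 869 CPM, or 1146 ± 251 CPM. In hypoxia-lactate it was 845, 883 and 936 CPM, or 888 ± 45.9 CPM. The 3 normoxia-NaCl libraries all lay above the 3 normoxia-lactate and the 3 hypoxia-lactate libraries, whereas hypoxia-NaCl overlapped each of the other groups. The mean of a gene was highest in normoxia-NaCl for 35 of the 42 genes, and lowest in hypoxia-lactate for 32. Without hypoxia-lactate 3 these counts were 38 and 28. Among single libraries normoxia-NaCl 2 was the highest for 35 of the 42 genes, and hypoxia-lactate 3 the lowest for 30. Such counts were not made over all tested genes. In bulk RNA of this kind, fewer dividing cells and less of these RNAs per dividing cell cannot be told apart.

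**Figure D2:**
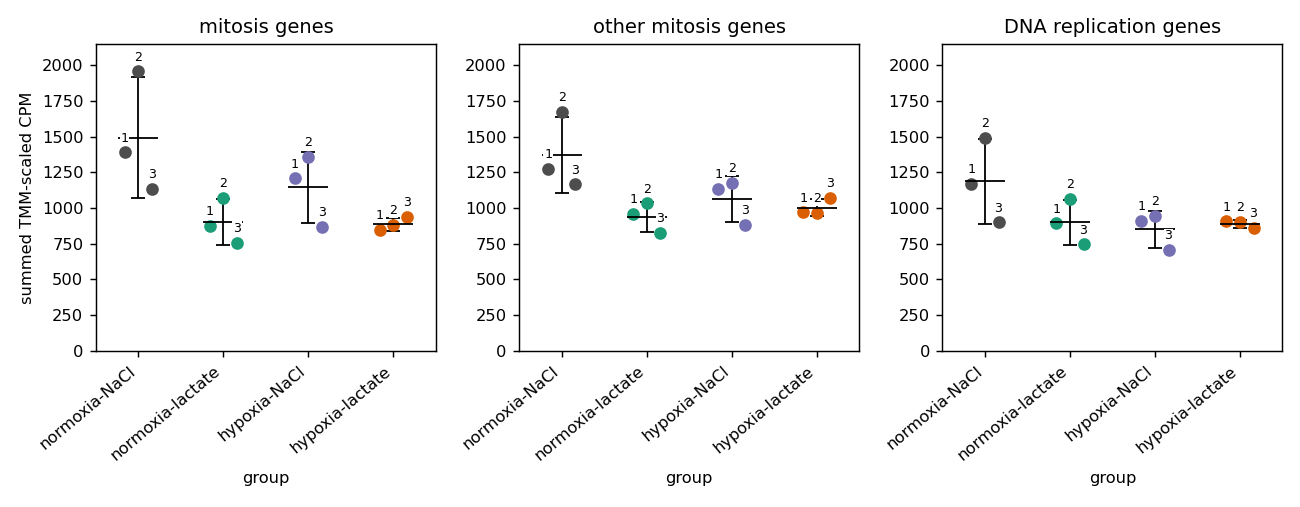
Summed TMM-scaled CPM (vertical axis, from 0) of the mitosis genes, of a second list of other mitosis genes and of DNA replication genes in the 4 groups (horizontal axis); points are libraries with their number, horizontal bars are group means and error bars are the SD over 3 libraries. For the mitosis genes the 3 normoxia-NaCl libraries lie at 1133 to 1958 CPM, above all normoxia-lactate (758 to 1073 CPM) and hypoxia-lactate (845 to 936 CPM) libraries.

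Levels per length of exon, averaged over normoxia-NaCl, spread widely among the 42 genes. The length covers all annotated exons of a gene together, so it can exceed that of any single transcript and lower the value. Mki67, the proliferation antigen that coats mitotic chromosomes, was highest at 22.8 CPM per kilobase, at percentile 84.6 of the 14122 tested genes with a length. Ccnb2 followed at 18.4 CPM per kilobase, Cdca3 at 15.6 and Ube2c at 15.4. The kinase gene Ttk was lowest at 1.31 CPM per kilobase, at percentile 27.3.

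Lactate in normoxia went with lower levels of nearly the whole set. The log2 fold change was negative for 41 of 42 genes with a median of -0.80, against 0.01 over all tested genes, and the median ratio of group means was 0.575. The 21 genes whose 3 normoxia-lactate libraries all lay below the 3 normoxia-NaCl libraries compare with 6.16% of all tested genes in that direction. Pttg1, which encodes securin, the inhibitor that holds back chromatid separation, was the exception, at 15.7, 17.0 and 16.7 CPM in normoxia-NaCl and 18.2, 15.8 and 19.7 CPM in normoxia-lactate (log2 fold change 0.12 ± 0.23, SE). The largest differences were those of Nusap1 (-1.15 ± 0.45), Hmmr (-1.05 ± 0.38) and Cdca3 (-1.04 ± 0.37). By library number the median difference was -0.63 for number 1, -0.87 for number 2 and -0.60 for number 3. In all 3 numbers 36 of 42 genes were lower with lactate, as were 13.5% of all tested genes. The numbers were not taken as pairs in this comparison.

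None of these genes passed the test for lactate in normoxia with all 12 libraries: edgeR called 0 of the 42 at an adjusted p of 0.05, beside 0% of all tested genes lower and 0% higher, with 12 of 42 at an unadjusted p under 0.05. Of all 14616 tested genes, 227 had an unadjusted p under 0.05, counting both directions. DESeq2 and limma-voom also called 0. Hypoxia-lactate 3 belongs to neither group, yet it widens the spread that the fit shares between groups. Without it 0 were called, beside 0.00663% of all tested genes lower. In that fit 32 of 42 had an unadjusted p under 0.05, beside 1047 of all 15088 tested genes, counting both directions. Leaving out normoxia-NaCl 2, the library with the highest sum, moved the median to -0.53, with 39 of 42 genes still negative.

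Lactate in hypoxia also went with lower levels of most of the set. The median log2 fold change was -0.64, against -0.03 over all tested genes, and 36 of 42 genes were negative. Without hypoxia-lactate 3 the median was -0.44 and 40 of 42 were negative. In 15 genes the hypoxia-lactate libraries all lay below the hypoxia-NaCl libraries, where 9.30% of all tested genes did so; without hypoxia-lactate 3 these were 18 genes and 16.3%. The lowest values belonged to Prc1 (-1.11 ± 0.47), Kif2c (-1.10 ± 0.45) and Kif11 (-1.10 ± 0.52), and the highest to Cdc20 (1.28 ± 0.73), Kif23 (0.84 ± 0.55) and Smc2 (0.49 ± 0.39), the 3 genes that read highest in hypoxia-lactate 3. Without that library these 6 genes were, in the same order, at -0.65, -0.74, -0.64, -0.83, -0.56 and -0.23. edgeR called 0 of 42, beside 0% of all tested genes in either direction, with 9 of 42 lower at an unadjusted p under 0.05, and DESeq2 and limma-voom called 0. At that unadjusted level edgeR had 1664 of all 14616 tested genes, counting both directions. Without hypoxia-lactate 3 the count was also 0, beside 0.0199% lower.

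Hypoxia without lactate went with lower levels of most genes, with the 3 libraries of each group overlapping for most of them. The median log2 fold change was -0.42, against 0.01 over all tested genes, with 38 of 42 genes negative. The lowest values were those of Plk1 (-0.90 ± 0.47), Cdca3 (-0.87 ± 0.37) and Spc25 (-0.81 ± 0.51), and the highest were those of Bub1 (0.10 ± 0.56), Pttg1 (0.09 ± 0.23) and Smc4 (0.02 ± 0.22). Plk1 and Cdca3 were the 2 genes whose groups did not overlap, where 12% of all tested genes had their hypoxia-NaCl libraries below. By library number the median difference was -0.17 in pair 1, -0.57 in pair 2 and -0.36 in pair 3, and 25 of 42 genes were lower in all 3 pairs, as were 21.5% of all tested genes. Leaving out normoxia-NaCl 2 moved the median of the fit to -0.14, with 28 of 42 genes negative, and leaving out hypoxia-NaCl 3 moved it to -0.25.

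The test called 0 of 42 genes for hypoxia without lactate (edgeR with all 12 libraries, beside 0.0137% of all tested genes lower and 0.267% higher), with 1 of 42 at an unadjusted p under 0.05, and DESeq2 and limma-voom called 0. That 1 gene compares with 948 of all 14616 tested genes at an unadjusted p under 0.05 by edgeR, counting both directions. The deviations of same-numbered libraries went together in this comparison. Leaving out hypoxia-lactate 3 also gave 0 of 42, beside 0.557% of all tested genes lower. With the library number as a block it was 0 of 42, beside 0.0137% lower, and with the block and without hypoxia-lactate 3 it was 6 of 42, beside 2.62% of all tested genes lower: Plk1 (-0.93, adjusted p = 0.015 by edgeR), Cdca3 (-0.89, 0.00362), Racgap1 (-0.64, 0.0163), Ccna2 (-0.59, 0.0408), Bub1b (-0.51, 0.0494) and Cdca8 (-0.51, 0.0491).

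Hypoxia in the presence of lactate gave a median that depended on 1 library. With all libraries the median log2 fold change was -0.34, with 33 of 42 genes negative. Without hypoxia-lactate 3 it was -0.09, with 28 of 42 negative, against -0.01 over all tested genes. The lowest values were those of Spc25 (-0.997 ± 0.51), Cdca3 (-0.78 ± 0.37) and Kif2c (-0.75 ± 0.45), and the highest those of Cdc20 (1.85 ± 0.74), Kif23 (1.51 ± 0.56) and Smc2 (0.74 ± 0.39). Without hypoxia-lactate 3 these 6 genes were, in the same order, at -0.57, -0.44, -0.40, -0.28, 0.11 and 0.0077. In 4 genes (Cdk1, Cdca8, Spc25 and Cdca3) the hypoxia-lactate libraries all lay below the normoxia-lactate libraries, where 11.3% of all tested genes did so, and without hypoxia-lactate 3 the same count of 4 compares with 18.7%. In the other direction Smc4 alone lay above, where 8.23% of all tested genes did. edgeR called 0 of 42, beside 0.0274% of all tested genes lower and 0.198% higher, with 2 higher and 0 lower at an unadjusted p under 0.05, and DESeq2 and limma-voom called 0. Those 2 genes compare with 2137 of all 14616 tested genes at that unadjusted level by edgeR, counting both directions. Without hypoxia-lactate 3 it also called 0, beside 0.212% lower.

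Both treatments together, hypoxia-lactate against normoxia-NaCl, gave the largest median, -1.10, against -0.01 over all tested genes, with 38 of 42 genes negative. Without hypoxia-lactate 3 the median was -0.87, with 41 of 42 negative. Here 2 genes fell: Cdca3 (log2 fold change -1.81 ± 0.38, SE, adjusted p = 0.0344 by edgeR) and Cdk1 (-1.43 ± 0.31, adjusted p = 0.0401). The background is 0.438% of all tested genes lower and 1.17% higher. A further 24 genes had an unadjusted p under 0.05 with a negative sign and did not pass. Of all 14616 tested genes, 3027 had an unadjusted p under 0.05, counting both directions. In 25 genes the hypoxia-lactate libraries all lay below the normoxia-NaCl libraries, where 11.2% of all tested genes did so, and without hypoxia-lactate 3 these were 30 genes, beside 19.7%.

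Without hypoxia-lactate 3 edgeR called 12 of the 42 genes lower for both treatments together, beside 3.26% of all tested genes, and both genes called with all libraries were among them. These were Cdca3 (-1.47, adjusted p = 0.00726), Spc25, Kif2c, Nusap1, Cdk1 (-1.22, 0.0192), Hmmr, Cdc20, Cenpf, Racgap1, Cdca8, Prc1 and Tpx2. Their log2 fold changes ranged from -1.47 to -0.87. Leaving out any 1 of the 3 normoxia-NaCl or 3 normoxia-lactate libraries, hypoxia-NaCl 1 or hypoxia-NaCl 2 left 0 of 42 called, leaving out hypoxia-NaCl 3 left 1, and leaving out hypoxia-lactate 2 gave 8, beside 1.49% of all tested genes lower. Over the 12 fits that left out 1 library, the log2 fold change ranged from -2.05 to -1.47 for Cdca3 and from -1.64 to -1.11 for Cdk1. Upper-quartile scaling also ended both calls.

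**Figure D3:**
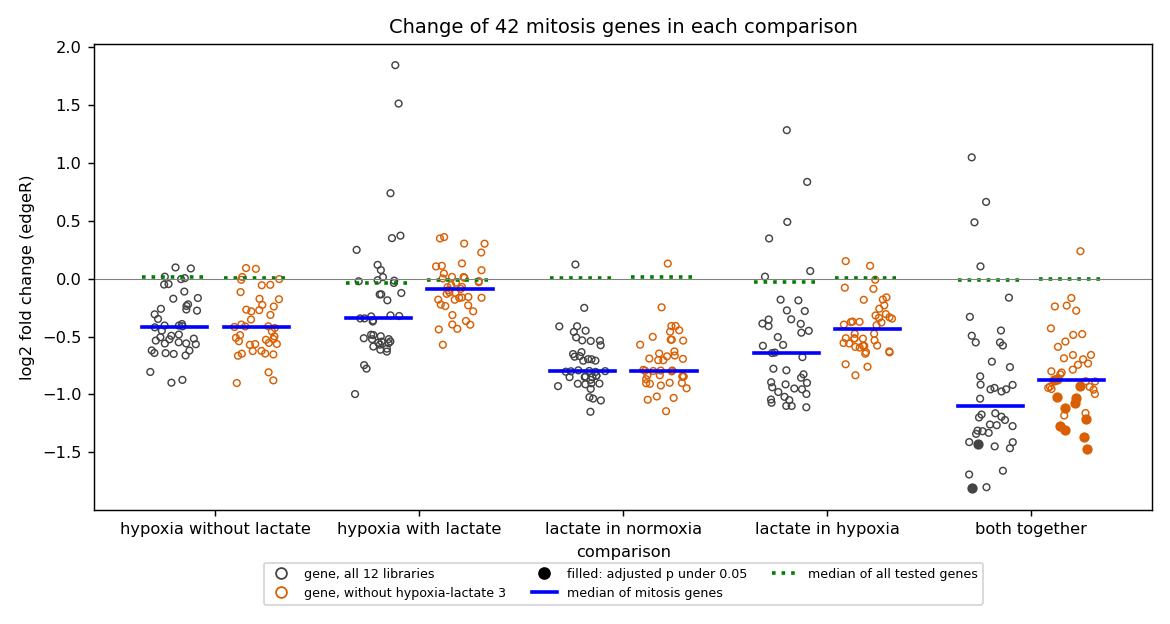
Log2 fold change (edgeR, vertical axis) of each of the 42 mitosis genes in 5 comparisons (horizontal axis), with all 12 libraries (grey) and without hypoxia-lactate 3 (orange); filled points have an adjusted p under 0.05, blue bars are medians of the mitosis genes and dotted green bars medians of all tested genes. The blue bars lie below the green ones in each comparison, from -0.34 for hypoxia with lactate to -1.10 for both together with all libraries, and without hypoxia-lactate 3 the bar for hypoxia with lactate is at -0.09.

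Whether lactate acted differently in hypoxia than in normoxia was tested by the interaction. Its median over the 42 genes was 0.10 with all libraries, with 24 genes positive, and 0.33 without hypoxia-lactate 3, with 40 positive. A positive value means that hypoxia-lactate lay above the level that the 2 separate differences would add up to. edgeR called 0 of 42, beside 0% of all tested genes higher and 0% lower, with 1 at an unadjusted p under 0.05, and DESeq2 and limma-voom called 0. At that unadjusted level edgeR had 497 of all 14616 tested genes, counting both directions. Leaving out normoxia-NaCl 2 gave a median of -0.16.

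The cyclins, their kinase and their transcription factor were lower in each comparison by median. Cdk1, the kinase that drives entry into mitosis, was at 34.3, 53.1 and 26.6 CPM in normoxia-NaCl, 20.4, 23.0 and 17.4 CPM in normoxia-lactate, 27.2, 33.3 and 23.0 CPM in hypoxia-NaCl and 16.8, 15.9 and 9.55 CPM in hypoxia-lactate. All 3 hypoxia-lactate libraries lay below every other library, and normoxia-NaCl 2 was the highest. For lactate in normoxia its log2 fold change was -0.91 ± 0.30, and for lactate in hypoxia -0.98 ± 0.30 (-0.76 ± 0.26 without hypoxia-lactate 3). Ccna2, cyclin A2, was at 38.2, 51.8 and 24.0 CPM in normoxia-NaCl, 19.9, 26.3 and 17.0 CPM in normoxia-lactate, 27.7, 28.9 and 17.4 CPM in hypoxia-NaCl and 18.4, 21.0 and 10.3 CPM in hypoxia-lactate. Its normoxia-NaCl libraries all lay above its hypoxia-lactate libraries, with a log2 fold change for both together of -1.19 ± 0.35 (adjusted p = 0.099), and without hypoxia-lactate 3 of -0.94 ± 0.31 (0.0788). Ccnb1, cyclin B1, was at 20.7, 27.2 and 12.1 CPM in normoxia-NaCl, 8.39, 13.0 and 9.62 CPM in normoxia-lactate, 12.2, 18.9 and 9.90 CPM in hypoxia-NaCl and 9.49, 11.4 and 0.890 CPM in hypoxia-lactate, so that hypoxia-lactate 3 was more than 10-fold below hypoxia-lactate 1 and 2. The log2 fold change of Ccnb1 for both together was -1.45 ± 0.64 with that library and -0.93 ± 0.35 without it, and neither passed. Foxm1, which encodes a transcription factor of these genes, was at 34.7, 58.4 and 38.3 CPM in normoxia-NaCl, 28.6, 32.0 and 15.3 CPM in normoxia-lactate, 33.8, 36.7 and 13.7 CPM in hypoxia-NaCl and 20.4, 24.8 and 24.4 CPM in hypoxia-lactate, and its lowest library was hypoxia-NaCl 3. Ccnb2, cyclin B2, had group means from 28.2 ± 8.73 CPM in normoxia-NaCl to 10.2 ± 7.63 CPM in hypoxia-lactate.

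Among the kinases of mitotic entry and the spindle poles, Plk1, which matures the centrosomes and promotes entry, was at 29.2, 31.2 and 18.9 CPM in normoxia-NaCl, 15.5, 22.5 and 7.56 CPM in normoxia-lactate, 16.0, 17.5 and 9.07 CPM in hypoxia-NaCl and 13.1, 10.5 and 30.7 CPM in hypoxia-lactate. Hypoxia-lactate 1 and 2 were below all 3 normoxia-NaCl libraries, while hypoxia-lactate 3 was the second highest of the 12. Its log2 fold change for both together was therefore -0.55 ± 0.47 with all libraries and -1.16 ± 0.40 without hypoxia-lactate 3 (adjusted p = 0.0909). Aurka, the spindle pole kinase Aurora A, and Tpx2, its activator on the spindle, had log2 fold changes for lactate in normoxia of -0.85 ± 0.57 and -0.65 ± 0.32. Both had no overlap between those 2 groups. For Aurka, however, normoxia-NaCl 3 (14.392 CPM) and normoxia-lactate 2 (14.384 CPM) were nearly equal.

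The chromosomal passenger complex corrects faulty attachments of chromosomes and later guides cell division. Aurkb, its kinase, was at 28.4, 46.7 and 28.4 CPM in normoxia-NaCl, 27.0, 27.9 and 17.9 CPM in normoxia-lactate, 23.4, 30.9 and 16.0 CPM in hypoxia-NaCl and 18.6, 17.4 and 37.6 CPM in hypoxia-lactate. Birc5, survivin, was at 24.7, 45.2 and 24.6 CPM in normoxia-NaCl, 18.5, 22.3 and 17.0 CPM in normoxia-lactate, 22.6, 25.5 and 17.1 CPM in hypoxia-NaCl and 17.9, 16.2 and 3.80 CPM in hypoxia-lactate. Both were lower in all 3 normoxia-lactate than in all 3 normoxia-NaCl libraries, and they parted in hypoxia-lactate 3, the second highest library for Aurkb and the lowest for Birc5. For both together Aurkb was at -0.49 ± 0.36 and Birc5 at -1.31 ± 0.46 on the log2 scale, and without hypoxia-lactate 3 at -0.94 ± 0.30 and -0.89 ± 0.27. Cdca8, borealin, fell when hypoxia-lactate 3 was left out (-0.92 ± 0.25, adjusted p = 0.0449 by edgeR).

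The spindle checkpoint delays chromosome separation until every kinetochore is attached. Bub1, its kinetochore kinase, was at 12.1, 18.1 and 9.31 CPM in normoxia-NaCl, 6.51, 9.46 and 6.11 CPM in normoxia-lactate, 12.9, 16.3 and 13.0 CPM in hypoxia-NaCl and 7.29, 11.5 and 1.19 CPM in hypoxia-lactate. The hypoxia-NaCl libraries were within the range of normoxia-NaCl, and all hypoxia-lactate libraries lay below all hypoxia-NaCl libraries (-1.07 ± 0.57 for lactate in hypoxia, and -0.58 ± 0.31 without hypoxia-lactate 3, neither passing). Mad2l1, which binds and holds the anaphase activator, was at 13.4, 22.4 and 10.3 CPM in normoxia-NaCl, 9.41, 10.6 and 8.98 CPM in normoxia-lactate, 11.9, 14.7 and 11.8 CPM in hypoxia-NaCl and 7.22, 10.6 and 1.84 CPM in hypoxia-lactate. It differed by -0.67 ± 0.49 for lactate in normoxia and -0.27 ± 0.48 for hypoxia without lactate, neither passing. Bub1b and Ttk had group means in normoxia-NaCl of 53.7 ± 16.0 and 6.46 ± 3.46 CPM and in normoxia-lactate of 32.8 ± 8.83 and 3.70 ± 0.455 CPM, with no overlap for either gene.

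Kinetochores join the chromosomes to the spindle. Spc25, a subunit of the NDC80 complex that grips microtubules, was at 17.0, 16.3 and 8.47 CPM in normoxia-NaCl, 7.29, 9.92 and 6.67 CPM in normoxia-lactate, 6.89, 10.7 and 6.24 CPM in hypoxia-NaCl and 6.12, 4.61 and 1.13 CPM in hypoxia-lactate. Normoxia-NaCl 1 and 2 were at about the same level and stood above every other library. Its log2 fold change for both together was -1.80 ± 0.52 with all libraries (adjusted p = 0.0967) and -1.37 ± 0.35 without hypoxia-lactate 3 (0.0345), a call only without that library. Cenpf, a large kinetochore protein, was likewise called only then (-1.03 ± 0.27, 0.0371). Cenpa, the histone variant that marks centromeres, Cenpe, a kinetochore motor, and Ndc80 and Nuf2, which belong to the same complex as Spc25, had log2 fold changes for both together of -0.92, -0.33, -0.58 and -1.26, and without hypoxia-lactate 3 of -0.80, -0.43, -0.70 and -0.74, none passing.

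The spindle motors and microtubule binders had the lowest median of the 9 roles for both together, -1.54 over 4 genes (-1.20 without hypoxia-lactate 3, again the lowest), and also for lactate in normoxia, -0.98. Kif11, the motor that separates the spindle poles, was at 20.8, 47.5 and 23.6 CPM in normoxia-NaCl, 17.7, 21.7 and 17.4 CPM in normoxia-lactate, 28.6, 33.6 and 19.7 CPM in hypoxia-NaCl and 18.6, 16.4 and 3.09 CPM in hypoxia-lactate. Kif2c, which takes microtubules apart at the kinetochore, was at 15.4, 21.1 and 12.4 CPM in normoxia-NaCl, 8.60, 11.4 and 5.91 CPM in normoxia-lactate, 11.8, 14.2 and 7.17 CPM in hypoxia-NaCl and 5.54, 7.65 and 2.20 CPM in hypoxia-lactate. Both were highest in normoxia-NaCl 2 and lowest in hypoxia-lactate 3. Nusap1, which bundles spindle microtubules, was at 23.5, 33.9 and 17.0 CPM in normoxia-NaCl, 10.8, 13.4 and 9.34 CPM in normoxia-lactate, 17.4, 17.0 and 13.2 CPM in hypoxia-NaCl and 10.7, 9.79 and 2.43 CPM in hypoxia-lactate. All its normoxia-NaCl libraries lay above the 3 normoxia-lactate libraries, and above the hypoxia-lactate libraries. Hmmr, a hyaluronan receptor that also binds the spindle, was at 22.4, 23.9 and 12.7 CPM in normoxia-NaCl, 8.68, 11.9 and 7.87 CPM in normoxia-lactate, 13.0, 16.5 and 11.7 CPM in hypoxia-NaCl and 7.40, 10.7 and 3.98 CPM in hypoxia-lactate. For both together and without hypoxia-lactate 3, Kif2c (-1.30 ± 0.35, adjusted p = 0.0436), Nusap1 (-1.28 ± 0.28, 0.0175) and Hmmr (-1.12 ± 0.30, 0.0436) fell, by edgeR.

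In the class of the central spindle and cytokinesis, Kif23, a motor of the centralspindlin complex, was at 50.2, 58.9 and 35.0 CPM in normoxia-NaCl, 24.5, 32.4 and 23.0 CPM in normoxia-lactate, 39.9, 46.8 and 41.1 CPM in hypoxia-NaCl and 28.2, 29.5 and 171 CPM in hypoxia-lactate. Hypoxia-lactate 3 was well above the mean of the 2 other hypoxia-lactate libraries, and without it the log2 fold change for both together was -0.73 ± 0.22 in place of 0.66 ± 0.55. Prc1, which crosslinks the midzone microtubules, was at 35.0, 58.2 and 34.1 CPM in normoxia-NaCl, 22.4, 25.9 and 22.6 CPM in normoxia-lactate, 39.9, 38.4 and 30.9 CPM in hypoxia-NaCl and 24.0, 22.3 and 4.09 CPM in hypoxia-lactate. Its normoxia-lactate and hypoxia-lactate libraries all lay below their NaCl counterparts. Ect2, the exchange factor that starts the contractile ring, was at 7.13, 18.3 and 9.33 CPM in normoxia-NaCl, 8.03, 9.37 and 7.91 CPM in normoxia-lactate, 12.1, 13.2 and 9.68 CPM in hypoxia-NaCl and 8.77, 7.92 and 1.31 CPM in hypoxia-lactate, with lactate in normoxia at -0.46 ± 0.54 and hypoxia without lactate at 0.01 ± 0.54. Racgap1, the partner of Kif23, had group means of 59.0 ± 14.4 CPM in normoxia-NaCl, 32.2 ± 6.46 CPM in normoxia-lactate, 38.4 ± 12.2 CPM in hypoxia-NaCl and 25.7 ± 5.86 CPM in hypoxia-lactate. Kif20a and Anln, which act in the last steps of cell division, had log2 fold changes for lactate in normoxia of -0.90 ± 0.48 and -0.54 ± 0.38.

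Among the genes of chromosome structure, Mki67 was at 237, 288 and 164 CPM in normoxia-NaCl, 133, 166 and 127 CPM in normoxia-lactate, 211, 222 and 123 CPM in hypoxia-NaCl and 143, 142 and 134 CPM in hypoxia-lactate. Every hypoxia-lactate library lay below every normoxia-NaCl library, and with TMM scaling the 3 hypoxia-lactate libraries differed by less than in any other group. The TMM factor of hypoxia-lactate 3 was 0.742, and whether this small spread held under other scalings was not tested. The log2 fold change of Mki67 for both together was -0.72 ± 0.25 (adjusted p = 0.144 by edgeR), and -0.69 ± 0.27 (0.126) without hypoxia-lactate 3. Top2a, the topoisomerase that untangles sister chromatids, was at 105, 172 and 91.0 CPM in normoxia-NaCl, 65.0, 83.3 and 57.3 CPM in normoxia-lactate, 101, 112 and 63.3 CPM in hypoxia-NaCl and 60.7, 62.1 and 93.8 CPM in hypoxia-lactate, so that both lactate groups were below normoxia-NaCl except for hypoxia-lactate 3. Smc2 and Smc4 are the 2 core ATPases of condensin. Smc4 was at 56.3, 43.6 and 30.6 CPM in normoxia-NaCl, 27.9, 31.0 and 31.1 CPM in normoxia-lactate, 38.8, 45.3 and 47.9 CPM in hypoxia-NaCl and 34.9, 42.3 and 39.2 CPM in hypoxia-lactate. It was lower with lactate in normoxia (-0.54 ± 0.22) and higher in all 3 hypoxia-lactate than in all 3 normoxia-lactate libraries (0.37 ± 0.22, and 0.36 ± 0.21 without hypoxia-lactate 3), none passing. Smc2 was at 18.6, 30.4 and 19.4 CPM in normoxia-NaCl, 16.1, 21.4 and 19.9 CPM in normoxia-lactate, 22.9, 26.3 and 19.0 CPM in hypoxia-NaCl and 18.9, 19.7 and 57.4 CPM in hypoxia-lactate, between 16.1 and 30.4 CPM in the 11 libraries other than hypoxia-lactate 3. Ncapg and Ncaph, subunits of condensin I, had log2 fold changes for lactate in normoxia of -0.63 ± 0.41 and -0.41 ± 0.44.

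The last class acts at anaphase and in ubiquitin ligation. Cdca3, which helps to remove an inhibitor of mitotic entry, was at 44.6, 55.4 and 34.0 CPM in normoxia-NaCl, 23.0, 24.6 and 17.8 CPM in normoxia-lactate, 26.4, 29.8 and 16.9 CPM in hypoxia-NaCl and 15.7, 16.6 and 5.76 CPM in hypoxia-lactate. Each normoxia-NaCl library lay above every library of the other groups, and each hypoxia-lactate library below every library of the others. It was among the 3 lowest log2 fold changes for lactate in normoxia, for both hypoxia comparisons and for both together. Ube2c, the ubiquitin-conjugating enzyme of the anaphase-promoting complex, was at 53.5, 42.1 and 24.2 CPM in normoxia-NaCl, 20.4, 26.0 and 12.4 CPM in normoxia-lactate, 25.2, 29.9 and 20.5 CPM in hypoxia-NaCl and 16.0, 19.1 and 12.1 CPM in hypoxia-lactate, with -1.02 ± 0.34 for lactate in normoxia and -1.34 ± 0.34 for both together (adjusted p = 0.0718), where it was -1.18 ± 0.34 (0.0521) without hypoxia-lactate 3. Espl1, separase, the protease that cuts cohesin, was at 16.5, 41.1 and 26.3 CPM in normoxia-NaCl, 23.2, 26.2 and 13.7 CPM in normoxia-lactate, 25.7, 29.2 and 15.2 CPM in hypoxia-NaCl and 26.1, 20.1 and 15.2 CPM in hypoxia-lactate, with the groups overlapping. Pttg1 was at 19.3, 15.1 and 18.0 CPM in hypoxia-NaCl and 20.0, 18.8 and 14.4 CPM in hypoxia-lactate. All 12 libraries of Pttg1 lay between 14.4 and 20.0 CPM. The sign of Pttg1 depended on the scaling: for both together it was 0.11 with TMM (0.24 without hypoxia-lactate 3) and -0.01 with upper-quartile factors.

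Cdc20, the activator of the anaphase-promoting complex, was 1 of 3 genes, with Kif23 and Smc2, whose sign for both together turned when hypoxia-lactate 3 was left out. It was at 18.7, 28.0 and 19.6 CPM in normoxia-NaCl, 13.7, 15.6 and 8.87 CPM in normoxia-lactate, 21.7, 19.3 and 15.3 CPM in hypoxia-NaCl and 11.7, 9.30 and 117 CPM in hypoxia-lactate. In hypoxia-lactate 1 and 2 it was below every NaCl library, while hypoxia-lactate 3 was 11.1-fold above their mean. Its log2 fold change for both together was 1.05 ± 0.72 with all libraries and -1.07 ± 0.27 without hypoxia-lactate 3, where it fell (adjusted p = 0.0338 by edgeR).

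**Figure D4:**
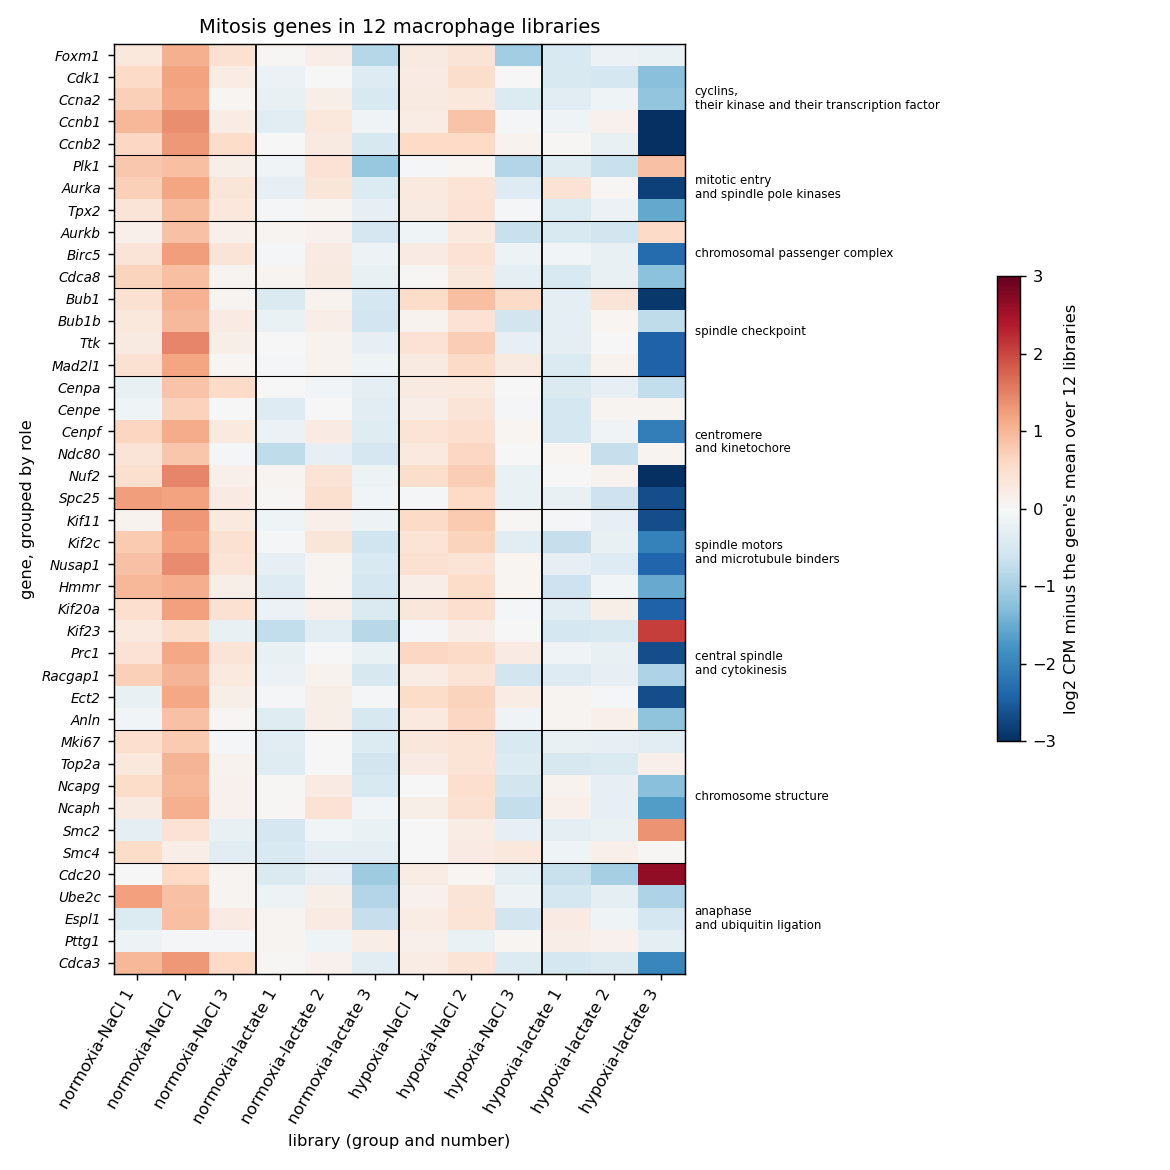
Level of each mitosis gene (rows, grouped by role) in the 12 libraries (columns), as log2 CPM minus the gene's mean over the 12 libraries; the colour scale ends at -3 and 3. Normoxia-NaCl 2 is the reddest column, being the highest library for 35 of 42 genes, and hypoxia-lactate 3 mixes the darkest blue with 5 rows that are more than 2-fold above the 2 other hypoxia-lactate libraries.

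Within a library the mitosis genes deviated together, except in hypoxia-lactate 3. The deviation of each gene in a library from its mean in the 11 others, on the log2 scale, had an interquartile range of 0.19 to 0.48 in 11 libraries and of 2.29 in hypoxia-lactate 3. Over all tested genes that range was 0.37 to 0.93 and 2.60. The median deviation was 1.14 in normoxia-NaCl 2, the highest, and 41 of 42 genes were above 0 there. Relative to the mean of hypoxia-lactate 1 and 2, hypoxia-lactate 3 held 5 genes more than 2-fold higher (Cdc20, Kif23, Smc2, Plk1 and Aurkb) and 22 under 0.5-fold, 14 of them under 0.25-fold. Of 10017 tested genes at 5 CPM or more in those 2 libraries, 20.1% were more than 2-fold higher in hypoxia-lactate 3, 26.1% were under 0.5-fold and 11.7% under 0.25-fold. The counts behind the lowest values were small: 9 reads for Nuf2, 12 for Ttk and 15 for Ccnb1. The sum of 936 CPM in that library is thus made of a few very high and many very low genes.

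**Figure D5:**
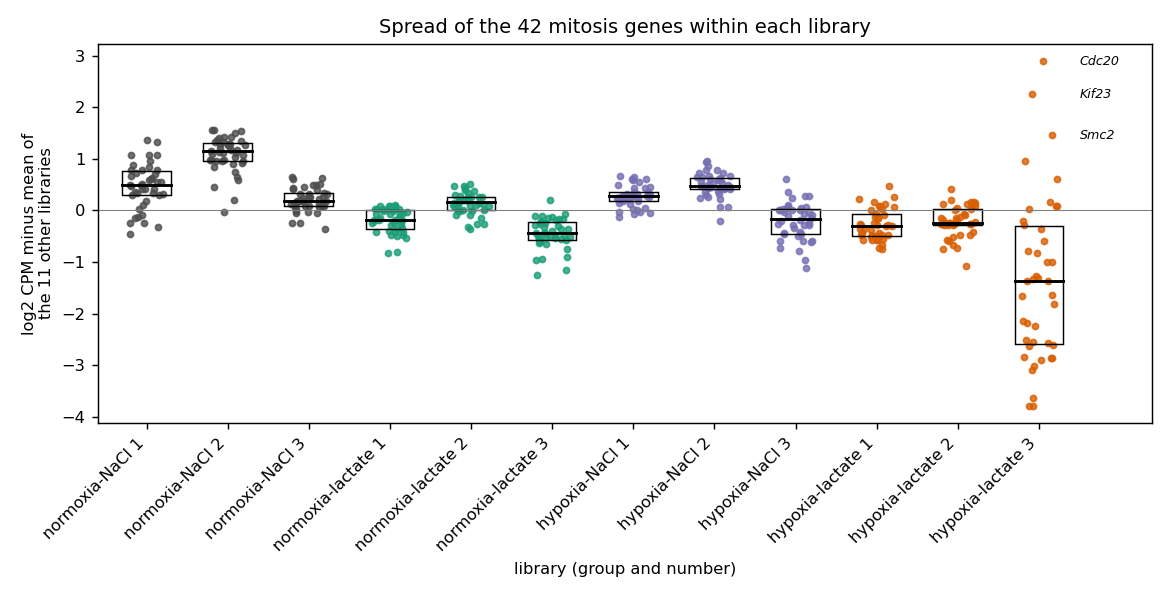
Deviation of each mitosis gene (points) from its mean in the 11 other libraries, in log2 CPM (vertical axis), for each library (horizontal axis); boxes span the quartiles and thick bars are medians. The boxes are 0.19 to 0.48 high in 11 libraries and 2.29 high in hypoxia-lactate 3, where Cdc20, Kif23 and Smc2 are the highest points.

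Markers of other cells are set beside these results. The 10 marrow progenitor markers, 5 of them below 1 CPM in all libraries, summed to 23.8 to 37.5 CPM in normoxia-NaCl, 21.4 to 31.5 CPM in normoxia-lactate, 19.3 to 28.1 CPM in hypoxia-NaCl and 17.2 to 30.9 CPM in hypoxia-lactate. By number they were at 37.5, 25.5 and 23.8 CPM in normoxia-NaCl and at 31.5, 21.5 and 21.4 CPM in normoxia-lactate, so the groups overlapped and each lactate library was below the NaCl library of its number, though the numbers were not taken as pairs in that comparison. The 8 neutrophil markers, 3 of them below 1 CPM throughout, summed to 67.3 to 175 CPM in normoxia-NaCl, 76.5 to 162 CPM in normoxia-lactate, 124 to 198 CPM in hypoxia-NaCl and 163 to 242 CPM in hypoxia-lactate. In each group the library numbered 2 was the highest for the neutrophil sum, and it was also the highest for the mitosis sum in the groups other than hypoxia-lactate. Ngp, a neutrophil granule gene, was at 11.5, 4.54, 4.97 and 4.24 CPM in the 4 libraries numbered 2, and at most 0.354 CPM in the other 8. The 8 fibroblast markers summed to 32.1 to 118 CPM over the 12 libraries. The part of these cells in the differences of the mitosis genes was not tested.

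A second list of 60 other mitosis genes also had negative medians with all libraries. Their median log2 fold change was -0.69 for lactate in normoxia, with 59 of 60 negative, -0.47 for lactate in hypoxia, -0.48 for hypoxia without lactate, -0.26 for hypoxia with lactate and -0.94 for both together. Without hypoxia-lactate 3 the medians were -0.22 for lactate in hypoxia, 0.03 for hypoxia with lactate and -0.69 for both together. For both together 2 of 60 fell with all libraries, Psrc1 (-2.24 ± 0.46, adjusted p = 0.0343 by edgeR) and Iqgap3 (-1.66 ± 0.37, 0.0461), and 10 of 60 without hypoxia-lactate 3. The 42 DNA replication genes had medians of -0.42 for lactate in normoxia, with 40 of 42 negative, -0.52 for hypoxia without lactate and -0.90 for both together (-0.65 without hypoxia-lactate 3), with 0 called by edgeR (21 lower at an unadjusted p under 0.05, and 8 called lower by DESeq2) and 7 called without hypoxia-lactate 3. For the 15 G1 cyclins and kinases the median for both together was -0.53 (-0.37 without hypoxia-lactate 3), with 0 called by edgeR, 2 called lower by DESeq2 and 2 by edgeR without hypoxia-lactate 3. Beside the counts of these 3 lists, edgeR called 0.438% of all tested genes lower for both together and DESeq2 4.03%. Without hypoxia-lactate 3 edgeR called 3.26% lower and 3.6% higher. By edgeR 3027 of all 14616 tested genes had an unadjusted p under 0.05.

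Further lists, of subunits of the anaphase-promoting complex, cohesin genes, and CDK inhibitors and quiescence regulators, had medians nearer to 0. For both together all 9 cohesin genes were positive. The 25 CDK inhibitors and quiescence regulators had a median of -0.16 there. The 15 subunits of the anaphase-promoting complex had a median of -0.10 for lactate in normoxia and 0.11 for both together, and the 9 cohesin genes 0.10 and 0.23 (for both together and without hypoxia-lactate 3, -0.0072 and 0.36), with 0 called in either list by edgeR (for both together, at an unadjusted p under 0.05, 1 subunit was lower and 2 were higher, and 0 cohesin genes were lower and 1 higher). DESeq2 called 2 subunits and 1 cohesin gene higher for both together, and edgeR without hypoxia-lactate 3 called 2 subunits higher and 1 lower. Of all 14616 tested genes, DESeq2 called 861 higher for both together. Among 25 CDK inhibitors and quiescence regulators, 2 rose for both together: Btg1 (1.12 ± 0.24, adjusted p = 0.04 by edgeR), an anti-proliferation gene, and Ccng2 (1.04 ± 0.21, 0.0296), an atypical cyclin of resting cells. For both genes all hypoxia libraries, with NaCl or lactate, lay above all normoxia libraries. Without hypoxia-lactate 3 edgeR called 4 of the 25 higher. Of all tested genes, edgeR called 1.17% higher for both together with all libraries and 3.6% without hypoxia-lactate 3. Cdkn1b, which encodes p27, was at 1.12 ± 0.26 (0.0568) with all libraries and rose without hypoxia-lactate 3 (0.99 ± 0.25, 0.0377). Cdkn1a, which encodes p21, was at -0.53 ± 0.28, and Cdkn2c, which encodes p18, at -0.40 ± 0.39, and without hypoxia-lactate 3 they were at -0.78 ± 0.26 and -0.996 ± 0.28, none passing.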

How the data were processed

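Polyadenylated RNA was sequenced on an Ion Proton instrument, per the labels' protocols. The deposited values are raw counts of reads per Ensembl gene, made with BWA and HTSeq on mm9, per the submitters' processing notes. Neither the gene annotation behind the counts nor their strand setting is stated there, which leaves overlapping, antisense and near-identical genes uncertain. The 5 counters that name no gene were left out. Of all reads, 13.7% to 22.0% hit no gene, 8.34% to 18.4% aligned in several places, 2.02% to 5.48% did not align, 0.361% to 0.442% were ambiguous and 0% were of low quality. Symbols and exon lengths came from GENCODE on GRCm38 by identifier, and 32897 identifiers had a symbol. Cdkn2d had no identifier.

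All 12 libraries entered 1 model with group means, fitted in edgeR 4.0.16 (R 4.3.3; quasi-likelihood F test, TMM, filterByExpr), with Benjamini-Hochberg adjustment over 14616 genes and a threshold of 0.05. SE is the absolute log2 fold change over the root of F. Comparisons that share a group are not independent of each other. Each of the 5 comparisons of 2 groups was also run under 23 alternatives, among them DESeq2 1.42.0 and limma-voom (limma 3.58.1), and the test was checked on simulated counts. The members and gene lists were chosen with earlier results of these data known. Every member is accounted for. Values by library are given for the mitosis genes past the threshold by edgeR with all 12 libraries and for well-known markers of division. They are also given for the mitosis genes with the 3 highest and 3 lowest log2 fold changes of each comparison. For hypoxia without lactate, same-numbered libraries deviated together (correlations 0.138 to 0.315, all above 0.1). In the other comparisons the lowest correlation was -0.069 to 0.082, so the numbers were not taken as pairs there. For lactate in normoxia the correlations were 0.025, 0.206 and 0.239 for numbers 1, 2 and 3, so number 1 alone fell short. Mitosis genes lower in all 3 numbers were 28 for lactate in hypoxia (19.1% of all tested genes) and 18 for hypoxia with lactate (20.0%). For both together they were 29 (20.4%). The coefficient of variation within groups was 38.2%, and 24.3% without hypoxia-lactate 3.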

Additional observations from a re-analysis of the deposited data

How the results depend on the processing

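The number of mitosis genes called for both together was 2 in the fit with all libraries, beside 0.438% of all tested genes lower. It was 14 with DESeq2 (4.03% of all tested genes lower), 1 with limma-voom (0.541%), 9 with limma-voom and quality weights (3.37%), 0 with upper-quartile factors (0.541%), 0 with only the groups compared (0%), and 9 without hypoxia-lactate 3 and normoxia-NaCl 1 (2.83%). With the library number as a block it was 12 (0.773% of all tested genes lower), and with the block and without hypoxia-lactate 3 it was 31 (7.3% of all tested genes lower). For both together the numbers did not pass the check for pairs (correlations -0.069 to 0.333). Leaving out 1 library at a time gave 0 to 12. For hypoxia without lactate the block and leaving out hypoxia-lactate 3 gave 6 (2.62%) in place of 0, and for lactate in normoxia 10 (0.192%) in place of 0, though there the numbers did not pass the check for pairs; the other block counts stayed at 0. Median log2 fold changes kept their sign in the 5 comparisons of 2 groups under all 23 alternatives; leaving out 1 library they ranged from -0.63 to -0.14 for hypoxia without lactate, -0.58 to -0.09 for hypoxia with lactate, -0.94 to -0.53 for lactate in normoxia, -0.79 to -0.44 for lactate in hypoxia and -1.35 to -0.79 for both together. The interaction, at 0.10, ranged from -0.16 to 0.33.

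Cdc20 reversed for both together, from 1.05 to -0.13 with limma-voom, -1.04 with quality weights, -1.22 with the block and without hypoxia-lactate 3, -1.19 without hypoxia-lactate 3 and normoxia-NaCl 1, and -1.07 to 1.53 when 1 library was left out. The summed level, as log2 against the mean of all libraries, moved for hypoxia-lactate 3 to -0.054 with RLE factors, -0.60 with upper-quartile factors and -1.23 as a mean of log2 values, and as such a mean to -0.25 and -0.19 for hypoxia-lactate 1 and 2. By TMM-scaled sum, hypoxia-lactate 3 was the highest of its group, at 936 CPM beside 845 and 883 CPM. As a mean of log2 values it was the lowest of that group. Upper-quartile factors shifted the median of all tested genes by -0.13 to -0.12 in comparisons with hypoxia-lactate. The cause of these changes was not tested. Nuf2 had 9 reads in hypoxia-lactate 3 and 184 in hypoxia-lactate 2, libraries of 22705978 and 25256178 assigned reads.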

Other observations

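Cdkn1b, the gene of the inhibitor p27, was at 27.1, 52.0 and 60.1 CPM in normoxia-NaCl, 61.3, 61.9 and 61.7 CPM in normoxia-lactate, 78.9, 84.4 and 112 CPM in hypoxia-NaCl and 89.9, 94.0 and 119 CPM in hypoxia-lactate. All hypoxia libraries lay above all normoxia libraries. Cdkn1a, the gene of p21, was at 357, 236 and 218 CPM in normoxia-NaCl and at 186, 213 and 132 CPM in normoxia-lactate, and the hypoxia libraries ranged from 129 to 248 CPM. The 3 normoxia-lactate libraries of Cdkn1a lay below the 3 normoxia-NaCl libraries, at -0.61 ± 0.28 on the log2 scale (adjusted p = 1 by edgeR), which did not pass. Btg1 was at 197, 400.0 and 333 CPM in normoxia-NaCl, 404, 473 and 464 CPM in normoxia-lactate, 582, 640 and 609.8 CPM in hypoxia-NaCl and 734, 736 and 552 CPM in hypoxia-lactate. Ccng2 was at 28.1, 41.1 and 37.2 CPM in normoxia-NaCl and 38.2, 35.1 and 46.8 CPM in normoxia-lactate. In hypoxia-NaCl it was at 68.1, 61.8 and 81.2 CPM, and in hypoxia-lactate at 68.0, 65.6 and 85.0 CPM.

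Promoters of the mitosis genes without either motif in the window were those of Birc5, Mad2l1, Ncaph, Nuf2, Nusap1 and Pttg1. A variant of the CHR, TTTAAA, was in 23.7% of the mitosis windows, that of Birc5 among them, against 13.2% of all windows. Nusap1 had the lowest log2 fold change of the 42 genes for lactate in normoxia (-1.15 ± 0.45) and Pttg1 the highest (0.12 ± 0.23). The other genes named here lay between them. Whether the motifs went with the size of the change was not tested.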
